A study of Mus musculus with 2 samples.

Results

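Lymphocytes leave the blood in lymph nodes and gut-associated lymphoid tissue through high endothelial venules, whose plump endothelial cells carry sugars to which lymphocytes attach. The sugar is a sialylated, fucosylated and sulphated cap, built in the Golgi on mucin-like carrier proteins by a sialyltransferase, a fucosyltransferase and sulphotransferases. MAdCAM-1, which also binds the lymphocyte integrin α4β7, is the carrier best known from the mesenteric lymph node and Peyer's patches.

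Described here are 10 genes of this pathway, chosen by name from the 28692 genes in the count matrices. The carriers were Glycam1, Madcam1, Cd34 and Podxl. The enzymes were the N-acetylglucosamine 6-O-sulphotransferases Chst4 and Chst2, the α1,3-fucosyltransferase Fut7, the sialyltransferase St3gal6, the core 2 branching enzyme Gcnt1 and the core 1 extension enzyme B3gnt3. All 10 were found in the matrices under these symbols.

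The data were single-cell RNA counts of CD31+ cells from the mesentery of C57BL/6 pups at postnatal day 8. There were 2 droplet libraries, 1 control (6814 cells) and 1 Flcn knockout (4459 cells), each pooled by the study from 3 mice. Knockout pups were Flcn flox/flox with Cdh5-BAC-CreERT2, a tamoxifen-inducible Cre driven by the promoter of the endothelial cadherin gene, so that deletion was aimed at all endothelium and not at high endothelium alone. Both groups are labelled with injections of 40 µg of 4-hydroxytamoxifen under the skin, the first at P2 and the last at P6.5, and the genotype of the controls is not given in the sources used here. With 1 library per group there was no replicate, so no test between conditions was made. Intervals are 95% exact intervals for counting error only, and genotype cannot be told apart from library, pool or sex composition (Xist had 9 UMIs in the control library and 63462 in the knockout).

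High endothelial cells were taken by counts of unique molecular identifiers (UMIs): at least 2 of Cdh5, at least 10 of Glycam1 and at least 1 of Madcam1. This gate held 34 control cells (0.499% of the library, interval 0.346–0.697) and 40 knockout cells (0.897%, 0.642–1.22). As a share of endothelial cells they were 5.22% of 651 (3.64–7.22) and 3.96% of 1009 (2.85–5.36), so that the order of the libraries depended on the denominator. The cells were deep, with a median of 54354.5 and 51322 UMIs against 7283 and 8587 over all cells. Because the gate used Glycam1 and Madcam1, their levels in gated cells are given as description only. The Madcam1 condition removed no cell.

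Levels are summed UMIs of a gene scaled to 1000000 UMIs of the same cells (CPM). The other endothelial cells (617 control, 969 knockout) and the lymphocytes (5451 and 2844) served as comparison. Flcn itself had 31 UMIs in control gated cells (13.5 CPM) and 23 in knockout ones (9.03 CPM), a ratio of 0.670 with an interval of 0.373–1.19. The reads come from the 3′ ends of transcripts and the deleted exons are not stated in the sources used here, so these counts may not check the deletion.

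The gated cells were checked against cell type markers. All 8 pan-endothelial markers had UMIs in at least 50% of the gated cells of each library, with a summed level of 2993 CPM in control and 3728 CPM in knockout, lower than the 6125 and 5810 CPM of the other endothelium. The gated cells also held transcripts of other types. The 6 B cell markers, all with UMIs, summed to 741 CPM in control (30.1 to 4201 per cell) and 449 CPM in knockout (58.6 to 2877), against 6292 and 6232 CPM in B cell-like cells and 388 and 225 CPM in other endothelium. The 8 innate lymphoid markers, all with UMIs, summed to 630 and 488 CPM (0 to 1407 and 0 to 1256 per cell), against 2152 and 2053 CPM in innate lymphoid-like cells, 245 and 134 CPM in other endothelium and 7.72 and 14.1 CPM in venous-like cells. The 6 T cell markers, again all with UMIs, summed to 88.7 CPM (0 to 382 per cell) and 58.5 CPM (0 to 953). Ptprc, the gene of the pan-leukocyte protein CD45, was seen in 79.4% of control and 70% of knockout gated cells. The 8 lymphatic markers, all with UMIs, summed to 3731 CPM (0 to 11990 per cell) and 4317 CPM (0 to 18837), below the 8336 and 8731 CPM of lymphatic-like cells. Most of this was Ccl21a, a chemokine gene also known in high endothelium, at 3581 and 4140 CPM. The other 7 lymphatic markers summed to 150 CPM in control (0 to 1704 per cell) and 177 CPM in knockout (0 to 1646), against 4411 and 3600 CPM in lymphatic-like cells. The part of these other transcripts in the results below was not tested, except where values are given for gated cells without them. Scrublet called no gated cell a doublet. Of the gated cells, 29 control and 35 knockout cells fell in 1 endothelial cluster, cluster 0, which was given no cell type name because the type with most of its markers was a blood type (7 of 8 innate lymphoid markers) although the cells were endothelial by the pan-endothelial markers. Another 4 cells of each library fell in endothelial cluster 8, which had under 3 markers of any type. All 4 control ones had UMIs of the lymphatic genes Prox1 (188 CPM) and Lyve1 (985 CPM). The cells of cluster 8 stayed in the levels of gated cells below, except where cluster 0 is named. The name high endothelial therefore stands for the gate.

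The 2 genes that define the gate have no annotated exon in the 250 bases before their RefSeq starts, and these windows are printed because Glycam1 and Madcam1 mark the cells. They are from GRCm38.p6, Glycam1 at chr15:103565082-103565331 on the minus strand and Madcam1 at chr10:79664309-79664558 on the plus strand. Capitals mark matches to the motifs searched.
Glycam1: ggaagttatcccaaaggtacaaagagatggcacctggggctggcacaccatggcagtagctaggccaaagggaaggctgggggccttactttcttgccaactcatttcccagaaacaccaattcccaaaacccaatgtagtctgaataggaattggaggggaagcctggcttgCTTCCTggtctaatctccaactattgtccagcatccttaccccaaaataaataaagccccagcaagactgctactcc
Madcam1: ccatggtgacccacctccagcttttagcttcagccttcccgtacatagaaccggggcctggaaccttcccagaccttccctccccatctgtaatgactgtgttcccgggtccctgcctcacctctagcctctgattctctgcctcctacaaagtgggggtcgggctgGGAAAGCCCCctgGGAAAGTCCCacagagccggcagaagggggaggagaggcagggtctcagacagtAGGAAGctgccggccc
Motifs were searched on both strands. The Glycam1 window held the ETS core AGGAAG on the other strand, 77 to 72 bases before the start, a motif found in 29.5% of all 32851 promoter windows of this length. The Madcam1 window held 2 matches to a 10-letter NF-κB-type motif (GGG, any 2 bases, TTTCC) on the other strand, at 83 to 74 and 70 to 61 bases before the start, a motif in 1.41% of all windows. The first of these overlapped a match to GGGNNTTCC (4.98% of windows), and AGGAAG lay 16 to 11 bases before the start. None of the 13 windows of the 9 members with an entry held the letters CACGTG (6.02% of windows), TCATGTG (3.25%), TCACGTG (3.13%) or CCGGAAGT (2.88%). These are letter matches and nothing more is drawn from them.

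Glycam1 encodes a mucin-like carrier of high endothelium, and lies on chromosome 15 (103562759-103565081, minus strand; GRCm38, as for the genes below). Each of the 34 control cells had between 11 and 7122 Glycam1 UMIs, with a median of 136, and the 40 knockout cells had between 12 and 4170, with a median of 182.5. The ranges overlapped almost entirely. Summed, control cells had 34957 UMIs (15199 CPM) and knockout cells 15922 (6252 CPM), a ratio of 0.411 (0.404–0.419). The per-cell medians lay much closer, at 3949 and 3389 CPM, since 3 cells held 52.5% of the control counts and 3 held 45.2% of the knockout counts. Among gated cells with no UMI of the lymphocyte genes Cd3e, Cd3d, Cd79a and Ms4a1 (11 control and 21 knockout cells), the order was the opposite, with 1761 CPM in control and 4441 CPM in knockout. Among the 7 and 12 gated cells with no Ptprc UMI it was also the opposite, at 3886 and 4879 CPM. The gated cells without the 4 lymphocyte genes had a median of 36808 and 40887 UMIs, and those with them 78323 and 61390. The direction of the summed Glycam1 difference thus rested on the cells that also carried lymphocyte transcripts.

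Madcam1, the mucosal addressin (chromosome 10, 79664559-79668537, plus strand), varied less from cell to cell. Its summed level was 1185 CPM in control and 1116 CPM in knockout gated cells, a ratio of 0.942 (0.894–0.994), and the per-cell medians were 1050 and 1066 CPM. Outside the gate, cluster 0 had 300 CPM in control and 294 CPM in knockout. The 47 control and 75 knockout cells of cluster 0 without any Glycam1 UMI still had 283 and 230 CPM of Madcam1. In venous-like cells Madcam1 was at 72.7 CPM in control (113 UMIs) and 4.06 CPM in knockout (13 UMIs), a ratio of 0.0559 (0.0289–0.0995). In endothelial cluster 8 outside the gate the order was the opposite, with 128 CPM in control and 362 CPM in knockout.

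The edge of the gate had few cells. The gated cells with 10 to 19 Glycam1 UMIs (4 control, 3 knockout) had 291 and 710 CPM of Madcam1 and 40.3 and 63.2 CPM of Fut7. The cells just outside, with 5 to 9 Glycam1 UMIs and at least 2 of Cdh5 (4 and 4), had 421 and 1043 CPM of Madcam1 and 26.3 and 73.5 CPM of Fut7. In neither library did Madcam1 or Fut7 show a clear step at the line with these few cells. The cells on the sides of the line also differed in other transcripts. The lymphatic gene Lyve1 was at 734 CPM inside and 13.1 CPM outside in control, and at 63.1 and 156 CPM in knockout. With so few and unlike cells, whether the gate cuts a range cannot be told.

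**Figure D1:**
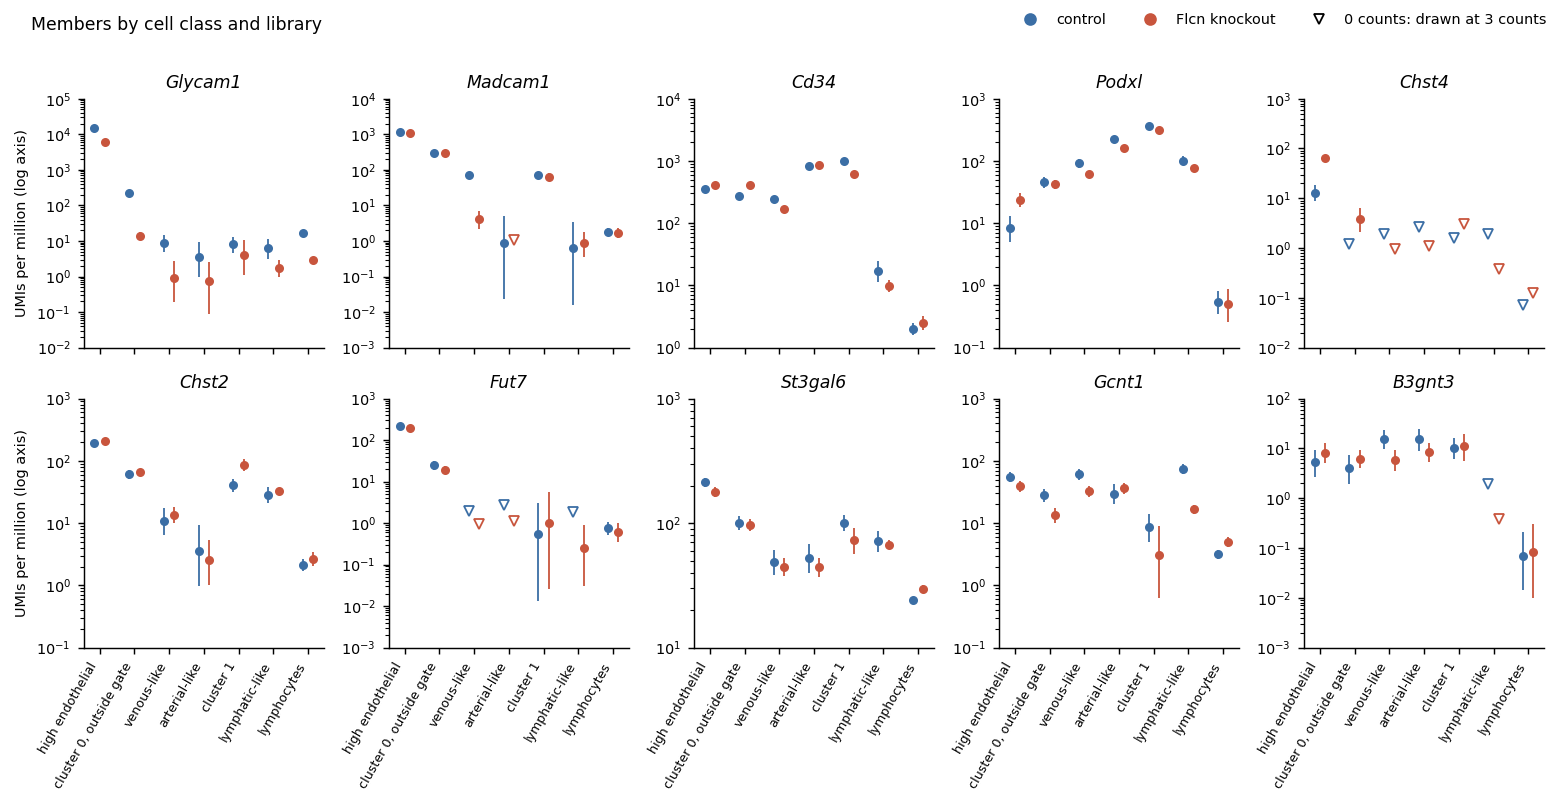
Summed CPM (log axes) of the 10 genes in 7 cell classes of the control and Flcn knockout libraries, with 95% exact Poisson intervals; open triangles stand at the level of 3 counts for classes with 0 counts. Fut7 was highest in the gated cells and next highest in cluster 0 of the classes drawn, Chst4 had 0 counts in control cluster 0, and Cd34 and Podxl were higher in arterial-like cells and cluster 1 than in gated cells.

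Cd34 and Podxl encode sialomucins found on endothelium of many kinds, which hold lymphocytes only when they carry the right sugars. Cd34 (chromosome 1, 194938819-194961279, plus strand) was at 354 CPM in control gated cells and 410 CPM in knockout ones, a ratio of 1.16 (1.05–1.27). It ranked 4 among the 17 classes with at least 20 cells in each library, in both libraries. Endothelial cluster 1 was highest in control at 985 CPM and arterial-like cells in knockout at 875 CPM. Over the other endothelium, the gated cells had 0.824 times the level in control (0.764–0.887) and 1.74 times in knockout (1.63–1.86). The 2 libraries thus stood on different sides of 1, with the level of the other endothelium itself lower in knockout (ratio of knockout to control 0.546). The antisense gene Gm16897, which overlaps Cd34, is counted as a gene of its own.

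Podxl (chromosome 6, 31519488-31563981, minus strand) was the only member below the other endothelium by more than 2-fold in both libraries. Gated cells had 19 UMIs in control (8.26 CPM) and 61 in knockout (24.0 CPM), with UMIs in 10 of 34 and 25 of 40 cells. Relative to the other endothelium these were 0.0583 (0.0350–0.0913) and 0.272 (0.207–0.351). Lymphocytes, the cells in which Podxl should be absent, had 0.542 and 0.497 CPM. Between libraries the gated cells differed by 2.90-fold (1.71–5.14), higher in knockout, whereas in the other endothelium Podxl was lower in knockout (ratio 0.621, 0.582–0.663). Among gated cells without Ptprc UMIs, however, the difference was not seen. The 7 control cells had 7 UMIs (37.0 CPM, 14.9–76.2), all of them in 2 cells. The 12 knockout cells had 15 UMIs (29.5 CPM, 16.5–48.7), found in 7 cells. Among gated cells without the 4 lymphocyte genes the levels were 25.3 CPM (12.6–45.3) and 27.4 CPM (18.8–38.5).

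The sulphotransferases add the sulphate that distinguishes the high endothelial form of the ligand. Chst4 (chromosome 8, 110029153-110039740, minus strand), the family member best known for high endothelium, was sparse in control. It had UMIs in 6 of 34 control gated cells, at most 18 in 1 cell, and the top cell held 60% of its 30 UMIs. In knockout it had UMIs in 27 of 40 cells, at most 22 in 1 cell, and 164 UMIs in all. The levels were 13.04 CPM (8.80–18.6) and 64.40 CPM (54.9–75.04), a ratio of 4.94 (3.33–7.55). After each cell was thinned to 2000 UMIs, the mean share of gated cells with a Chst4 UMI was 1.701% in control and 11.1% in knockout. Lymphocytes had 0 Chst4 UMIs in both libraries, in 5451 cells with a median of 7109 UMIs in control and in 2844 knockout cells.

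The Chst4 difference was larger than 2-fold under each of the 13 settings compared. It held without the top cell of each library, and among gated cells without the 4 lymphocyte genes (6.91 CPM from 3 UMIs against 64.7 CPM) or without Ptprc (15.9 CPM from 3 UMIs against 68.9 CPM), although 1 control cell carried all 3 UMIs in both of those sets. The other endothelium had 0 Chst4 UMIs in control and 14 in knockout. With 0 counts in the control other endothelium the ratio has no point value, and the lower limit of its exact interval was 38.3. Against a floor of 3 counts over that group, the control gated level was 50.1-fold higher, which is not a lower limit. The knockout gated level was 113-fold higher than in the other endothelium (65.7–212). Fibroblast-like cells had 15.99 CPM in control from 7 UMIs, which did not differ from the gated cells beyond counting error (gated over fibroblast-like 0.816, 0.351–2.20).

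Most gated cells carried Fut7 and Chst2, with or without Chst4. All 6 control cells with a Chst4 UMI had UMIs of Fut7 and Chst2, and of the 27 knockout cells 26 had Fut7 and 27 had Chst2. Of the 28 control cells without Chst4, 24 had Fut7 and 27 had Chst2. Of the 13 such knockout cells, 9 had Fut7 and 11 had Chst2. Deeper cells have more genes detected, and cells with Chst4 had a median of 97515 UMIs in control and 60601 in knockout against 51061 and 40810 in those without. The part of depth in these counts was not tested.

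Chst2 (chromosome 9, 95399292-95406722, minus strand), which shares this reaction with Chst4, was nearly equal in the libraries. Its level was 193 CPM in control and 211 CPM in knockout, a ratio of 1.09 (0.962–1.24), with UMIs in 33 of 34 and 38 of 40 gated cells. It was 5.79-fold higher than in the other endothelium in control (5.04–6.66) and 6.40-fold higher in knockout (5.72–7.14). The gated cells were first of the 17 classes in both libraries. Cluster 0 outside the gate had 61.2 and 65.2 CPM, and venous-like cells had 10.9 and 13.8 CPM.

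Fut7 (chromosome 2, 25423267-25426374, plus strand) adds the fucose of the sialyl Lewis X cap. It had UMIs in 30 of 34 control and 35 of 40 knockout gated cells, and summed to 214 and 195 CPM, a ratio of 0.914 (0.805–1.04) whose interval includes 1. The gated cells held 81.4% of all Fut7 UMIs of the control library and 84.0% of those of the knockout, the largest shares among the enzymes. Chst4 had 73.2% in control and a nearly equal 83.2% in knockout. Lymphocytes had 0 Chst4 UMIs in both libraries, but 32 Fut7 UMIs in control and 15 in knockout. Over the other endothelium the Fut7 ratio was 33.2 (26.0–43.0) in control and 63.3 (49.7–81.8) in knockout. Most of what remained was in cluster 0 outside the gate, at 24.7 and 19.3 CPM. Arterial-like and venous-like cells had 0 Fut7 UMIs in both libraries.

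St3gal6 (chromosome 16, 58468125-58524243, minus strand), a sialyltransferase of the same cap, was found in all 74 gated cells. Its level was 212 CPM in control and 177 CPM in knockout, a ratio of 0.835 (0.733–0.951). It was a broad gene with a raised level here: 2.58-fold over the other endothelium in control (2.31–2.88) and 2.72-fold in knockout (2.45–3.02), with 24.1 and 29.7 CPM in lymphocytes. St3gal6 overlaps Dcbld2 on the opposite strand, which is counted as a gene of its own.

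Gcnt1 and B3gnt3 build the 2 O-glycan arms on which the cap can sit. Gcnt1 (chromosome 19, 17326141-17372844, minus strand) was at 54.8 CPM in control and 39.3 CPM in knockout gated cells, a ratio of 0.717 (0.546–0.939). It was only 1.48-fold (1.202–1.806) and 1.84-fold (1.47–2.28) above the other endothelium. In control it was higher in lymphatic-like cells (75.3 CPM) than in the gated cells, and lymphatic-like cells had 16.7 CPM in knockout. B3gnt3 (chromosome 8, 71690756-71701789, minus strand) had 12 UMIs in control and 21 in knockout gated cells, or 5.22 and 8.25 CPM. The ratio of 1.58 had an interval of 0.743–3.52, and a difference was not detectable at this depth. The other endothelium had 7.64 CPM of B3gnt3 in control and 3.53 CPM in knockout. Among the 17 classes the gated cells ranked 6 for B3gnt3 in control and 4 in knockout.

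**Figure D2:**
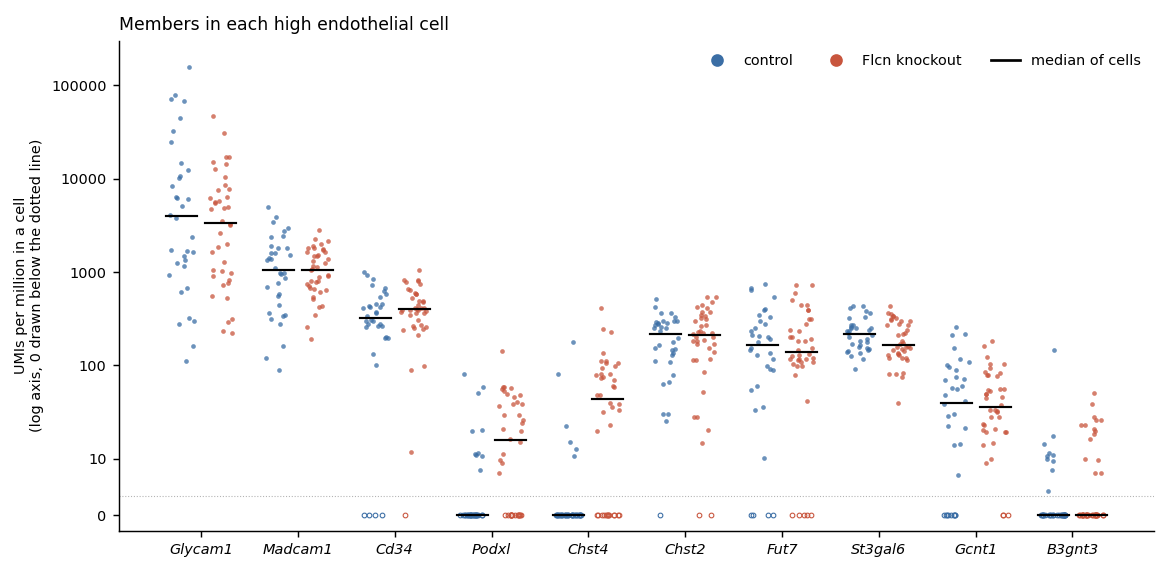
CPM of each member in each of the 34 control and 40 Flcn knockout gated cells (log axis, cells with 0 drawn below the dotted line); bars are medians of cells. Chst4 and Podxl had a median of 0 in control and of 43.9 and 15.9 in knockout. The ranges of every member overlapped between the libraries.

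Read over the members, few genes passed the 2-fold line between libraries. A gene was counted as higher or lower when its ratio passed 2-fold and it had at least 50 UMIs in the gated cells of both libraries together. By this rule 2.73% of the 8398 genes with enough UMIs were higher in knockout and 1.8% were lower. Of the 8 members outside the gate 7 had enough UMIs, and 2 of them, Chst4 and Podxl, were higher and 0 were lower. The median log2 ratio of these 7 was 0.13, against 0.02 over all genes. Over the other endothelium in control, 5.72% of 11181 genes were higher and 14.8% lower, and of 7 members 3 were higher (Chst2, Fut7 and St3gal6) and Podxl was lower, with a median log2 ratio of 0.57 against -0.17 for all genes. In knockout, 8.22% of 11994 genes were higher and 11.1% lower, and of 8 members 5 were higher (Chst4, Chst2, Fut7, B3gnt3 and St3gal6) and Podxl was lower, with a median of 1.36 against -0.04. The knockout contrast included 1 member more because Chst4 had too few UMIs in control. B3gnt3 had only 21 UMIs in knockout gated cells, and in control it was not above the other endothelium (ratio 0.683, 0.340–1.25).

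**Figure D3:**
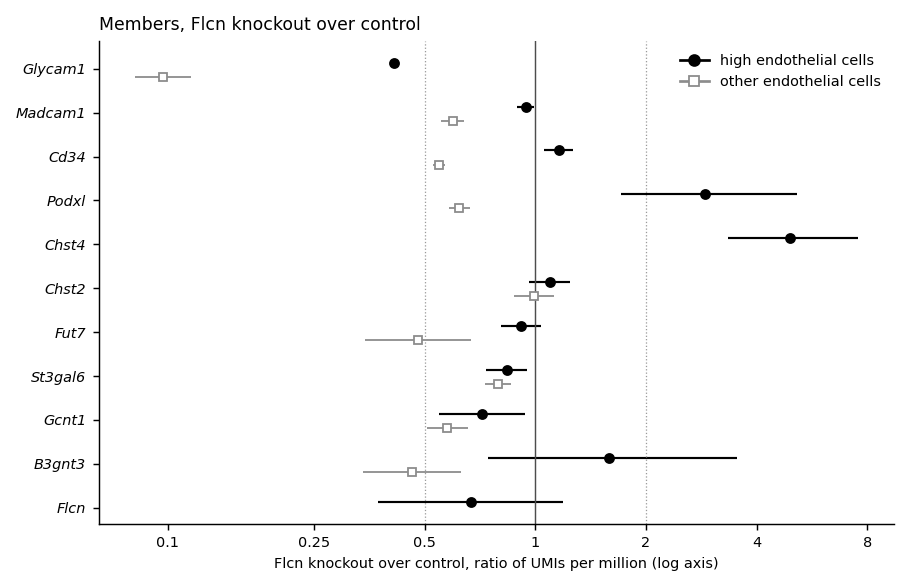
Ratio of Flcn knockout to control CPM (log axis) for the members and Flcn in gated cells (filled) and, for the members, in the other endothelium (open); bars are 95% exact intervals for counting error and dotted lines mark 2-fold. Chst4 had 0 UMIs in the control other endothelium and so has no open point; Chst4 and Podxl lie to the right of 2-fold in the gated cells and Glycam1 to the left of 0.5.

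The members were also followed within the gate, from cells with 10 to 99 Glycam1 UMIs (15 control, 15 knockout) to cells with at least 100 (19 and 25). Glycam1 is a gene of the gate and its raw UMIs rise with depth, so these values are descriptions only. Fut7 was higher in the second group in both libraries, at 119 against 258 CPM in control and 91.5 against 255 CPM in knockout. Chst4 was at 0 UMIs against 19.2 CPM in control and at 35.5 against 81.0 CPM in knockout. Chst2 was at 159 against 209 CPM and at 159 against 240 CPM, and Gcnt1 at 34.0 against 64.6 CPM and at 30.1 against 44.5 CPM. St3gal6 was flat, at 216 against 210 CPM and at 170 against 181 CPM. Podxl went from 13.6 to 5.76 CPM in control and from 25.8 to 22.9 CPM in knockout.

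Other transcripts moved along the same axis. The lymphatic hyaluronan receptor gene Lyve1 was at 277 CPM in cells with 10 to 99 Glycam1 UMIs and 14.7 CPM in those with at least 100 in control, and at 169 and 44.5 CPM in knockout. The B cell gene Cd79a went the other way, from 61.1 to 297 CPM in control and from 6.46 to 107 CPM in knockout. The control Lyve1 difference rested on cells of cluster 8, whose 4 control cells, all with under 100 Glycam1 UMIs, held 199 Lyve1 UMIs. Within cluster 0, Lyve1 was at 9.49 and 14.7 CPM in control. In knockout it was at 91.3 and 45.3 CPM there, so that the knockout fall was also seen within cluster 0. Fut7 in cluster 0 was still higher in the cells with at least 100 Glycam1 UMIs, at 165 against 258 CPM in control and at 116 against 256 CPM in knockout. Chst4 there was at 0 UMIs against 19.2 CPM in control and at 51.9 against 83.5 CPM in knockout. Over all gated cells, Ptprc was at 116 and 169 CPM in control and at 58.1 and 84.1 CPM in knockout. The part of these transcripts in the enzyme values was not tested. Within cluster 0 the cells with at least 100 Glycam1 UMIs were also deeper. Their median was 78323 UMIs against 46916 in control, and 57239 against 40810 in knockout. The part of depth was not tested either.

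**Figure D4:**
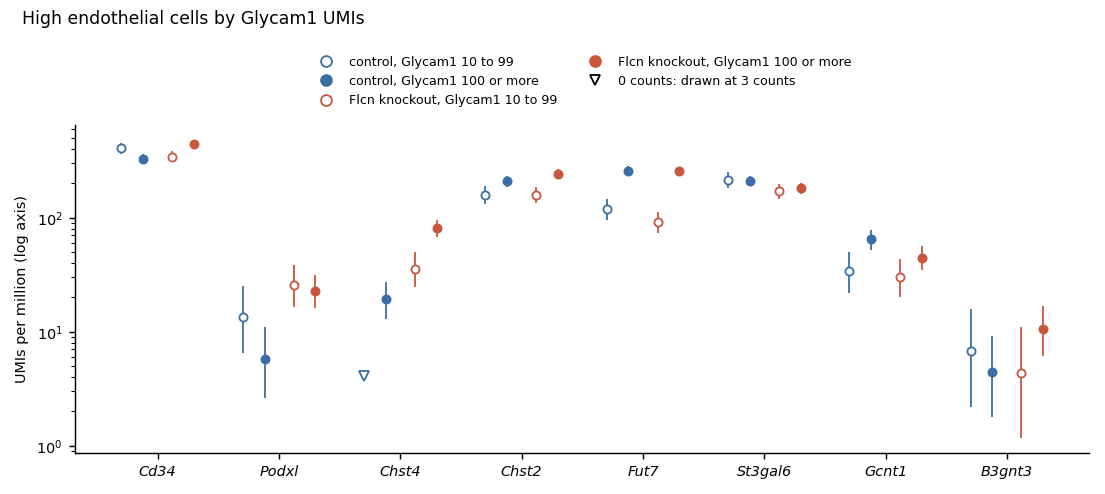
Summed CPM (log axis) of the 8 members outside the gate in high endothelial cells with 10 to 99 (open) or at least 100 (filled) Glycam1 UMIs, with 95% exact Poisson intervals. The filled Fut7 points lie above the open ones in both libraries, at 258 against 119 and at 255 against 91.5. The groups were made by Glycam1, a gene of the gate, and are a description.

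Of the 8 members outside the gate, more were seen per cell in knockout. The median gated cell had UMIs of 5 of them in control and of 7 in knockout. All 8 were seen in 2 of 34 and in 11 of 40 cells. The shallowest gated cell had 6879 UMIs in control and 18408 in knockout. Among cells with at least 20000 UMIs (29 control, 38 knockout; chosen after seeing the data) the medians were again 5 and 7, and all 8 members were seen in 2 and in 11 cells, at median depths of 68667 and 52654 UMIs. The same count was not made over all genes.

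Free RNA in droplets gives UMIs to cells that do not make a transcript, and lymphocytes, which are not known to make Glycam1, served to measure it. Lymphocytes had 718 Glycam1 UMIs in control, or 16.9 CPM (15.7–18.2), with a UMI in 7.23% of cells, and 69 in knockout, or 2.86 CPM (2.22–3.62), with a UMI in 2.22%. After thinning to 2000 UMIs the shares were 2.23% and 0.538%. In control, 4 lymphocytes with at least 10 Glycam1 UMIs held 279 of the counts, and without them the level was 10.4 CPM. In the innate lymphoid-like cells of the control library, 1 cell held 187 of 207 UMIs.

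Set against the gated cells this background was small. A lymphocyte had 0.132 Glycam1 UMIs on average in control and 0.0243 in knockout. At that rate 34 control cells would hold 4.48 of the 34957 UMIs and 40 knockout cells 0.970 of the 15922. For the other members the lymphocyte level was not shown to be free RNA. The share of gated UMIs that it would give was highest for St3gal6, at 1.31% and 2.23%. Lymphocytes held 36.3% of all St3gal6 UMIs in control and 21.3% in knockout. The ratio of Glycam1 to Madcam1 UMIs was 12.8 in control gated cells and 9.21 in lymphocytes, and 5.60 and 1.68 in knockout. Over all lymphocytes the ratio was below that in gated cells in both libraries, but the lymphocyte classes differed. In control it ran from 6.16 in B cell-like cells to 12.3 in T cell-like and 25 in NK-like cells. In knockout it ran from 0.68 in innate lymphoid-like cells, with 25 of the 41 Madcam1 UMIs, to 7 in NK-like cells. The NK-like values rested on 1 Madcam1 UMI in each library. Glycam1 and Madcam1 chose the gated cells, so these ratios are descriptions. Of all Glycam1 UMIs in each library, 95.7% in control and 98.5% in knockout lay in gated cells. The gate takes cells by their Glycam1 UMIs and so largely sets this share.

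Venous-like cells had 9.002 CPM of Glycam1 in control and 0.937 CPM in knockout, below the lymphocytes of each library. Per cell they had 0.184 UMIs in control and 0.0246 in knockout, above the 0.132 and 0.0243 of lymphocytes, with median depths of 15298 and 19811.5 UMIs against 7109 and 7747. A Glycam1 UMI was seen in 15.8% of control venous-like cells against 7.23% of lymphocytes, and in 1.97% against 2.23% after thinning to 2000 UMIs. Cluster 0 outside the gate had 218 and 13.9 CPM. In control this rested on 3 cells with at least 10 Glycam1 UMIs, and without them the level was 18.7 CPM.

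**Figure D5:**
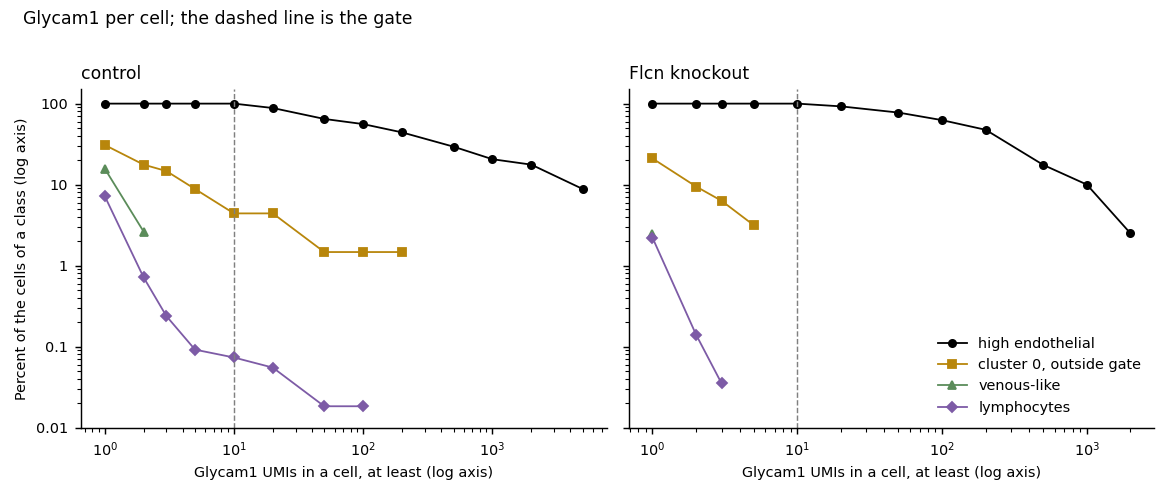
Percent of the cells of a class (log axis) with at least the number of Glycam1 UMIs on the log x axis, for high endothelial cells, cluster 0 outside the gate, venous-like cells and lymphocytes of each library; the dashed line is the gate of 10. Lymphocytes fell from 7.23% of control cells at 1 UMI, with 4 cells at 10 or more, and knockout lymphocytes from 2.22%.

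Genes with patterns most like a member were sought over 23 points, which were the 12 named classes in each library where they had at least 20 cells. The points share libraries and differ in depth, and the Pearson correlations of log2(CPM + 10) are descriptions. For Chst4 the most alike of 8398 genes were Serpina1b (r = 0.946), Cacng4 (0.935), Robo2 (0.923), Enpp2 (0.915) and Hs3st6 (0.899). Enpp2 encodes autotaxin, an enzyme that makes lysophosphatidic acid and is known in high endothelium. Serpina1b was at 31.3 CPM in control and 75.4 CPM in knockout gated cells, and Enpp2 at 525 and 545 CPM. Among the members, Fut7 (0.817), Chst2 (0.791) and Glycam1 (0.789) lay nearest to Chst4 and Podxl (0.130) far from it.

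For Podxl the most alike were Ltbp4 (0.981), Gxylt2 (0.979), Uaca (0.972), Lmcd1 (0.972) and Uchl1 (0.970). Ltbp4, which binds latent TGF-β in the matrix, had 41.3 and 28.3 CPM in gated cells and 562 and 350 CPM in the other endothelium, the same order as Podxl. Cd34 (0.734) was the member closest to Podxl, and Glycam1 was at -0.0903.

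Few of the other genes of the pathway passed 2-fold between the libraries. Of 19 further genes of the sugar's synthesis 16 had enough UMIs in gated cells, of which 0 were higher in knockout and 1, the sialyltransferase gene St3gal1, was lower (ratio 0.394, 0.209–0.712). Over all genes 2.73% were higher in knockout and 1.8% lower. The median log2 ratio of the 16 was -0.17, against 0.02 over all genes. Over the other endothelium, 2 of 18 with enough UMIs were higher and 1 lower in control (median log2 ratio -0.09), and 3 of 19 were higher and 1 lower in knockout (median 0.02), beside the 5.72% higher and 14.8% lower in control and 8.22% and 11.1% in knockout over all genes. Papss2, which makes the sulphate donor, was 2.71-fold higher in control and 7.02-fold in knockout, and the fucosyltransferase gene Fut4 was 3.93-fold and 4.84-fold higher. The sulphotransferase gene Chst1 was 1.91-fold higher in control and 3.66-fold in knockout. The galactosyltransferase gene B4galt1 was lower in control (ratio 0.412) and St3gal1 in knockout (0.287). Of 3 further carrier genes, Emcn, Cd300lg and Selplg, 0 passed 2-fold between libraries. Relative to the other endothelium Emcn was lower in control, and Cd300lg and Selplg were higher in knockout.

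Among 11 further genes known in high endothelium, 10 of them with enough UMIs, Selp, the gene of P-selectin, was higher in knockout gated cells (2.97-fold, 1.97–4.60). Over all genes 2.73% were higher in knockout. The NF-κB subunit genes Relb and Nfkb2, the chemokine receptor gene Ackr1 and Enpp2 were above 2-fold over the other endothelium in both libraries, Ccl21a in control (5.15-fold) and the adhesion gene Icam1 in knockout (2.28-fold). Of all genes, 5.72% were above 2-fold over the other endothelium in control and 8.22% in knockout. The gated cells also held transcripts of the lymphocyte receptor genes Itga4 and Itgb7, which encode the integrin that binds MAdCAM-1, and of the chemokine receptor gene Ccr7. Itga4 was 3.24-fold higher than in the other endothelium in control and 3.30-fold in knockout, Itgb7 1.92-fold and 3.53-fold, and Ccr7 3.28-fold and 3.64-fold. Between libraries Ccr7 was lower in knockout gated cells, with 162 UMIs in control and 56 in knockout (ratio 0.312, 0.226–0.425). The B cell, T cell and innate lymphoid markers given above were in the same cells, and their part was not tested.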

How the data were processed

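The deposited values were UMI counts per gene and cell, which the authors made with Cell Ranger 3.0 from 10x 3′ libraries. The submitters' processing notes name the build mm10. Depth was 64639756 UMIs in control and 60805779 in knockout, and 6 barcodes occurred in both libraries. All deposited cells were used. Cells were clustered with Seurat 5.3.0 (2000 features, 30 dimensions, resolution 0.8, endothelial cells again on their own), and classes were named "-like" from at least 3 markers seen in at least 20% of cells, thresholds set after the clusters were seen. Scrublet in scanpy 1.11.5 called doublets, which stayed in. Counts were summed per class and library, with 1 count added for log2 ratios, exact Poisson, conditional and Clopper-Pearson intervals (scipy 1.17.1), and expected detection at 2000 UMIs. The comparison was tested on simulated counts. Named were all members, the 5 genes most like Chst4 and Podxl, and, of the genes of the pathway lists, counts with values for at most 12 genes, chosen after their values were seen. Members and lists were chosen with earlier results of these data known. Gene positions came from GENCODE vM21 (28416 of 28692 identifiers matched), promoters from RefSeq. Alternatives changed the gate, filters, doublets, minimum count, added count and thinning. 1 further gene of the lists is not reported here.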

Additional observations from a re-analysis of the deposited data

How the results depend on the processing

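No paired analysis was possible because each condition had 1 library, and for the same reason no replicate could be left out. Of 126 main summary values under alternatives 107 stayed and 19 moved. Of the other values compared 371 stayed, 66 moved and 3 were reversed. Restricting the gated cells to those with 0 UMIs of Cd3e, Cd3d, Cd79a and Ms4a1, chosen after seeing the data, gave a log2 ratio of knockout to control of 1.33 for Glycam1, a reversal. With 0 Ptprc UMIs, also chosen after seeing the data, Glycam1 was at 0.33 and Podxl at -0.43, both reversed. The control Podxl value there rested on 7 UMIs in 2 cells. The share of cells in the gate was then 0.161% in control and 0.471% in knockout without the lymphocyte genes, and 0.103% and 0.269% without Ptprc. Of the 8 members outside the gate, those at least 2-fold higher in knockout with at least 50 summed counts numbered 1 and 0, and all genes so called 152 and 126. Without Ptprc, Chst4 was past 2-fold (log2 1.75) but had too few counts to be called. Genes at least 2-fold lower numbered 47 without Ptprc. With a minimum of 20 summed counts, 393 genes were higher and 314 lower. In the cells without Ptprc 5 of the 8 members outside the gate were at least 2-fold above the other endothelium in control. The number of genes with enough UMIs differs between these settings and is not given. These counts therefore cannot be read as shares or as a result about the members. Leaving mitochondrial, ribosomal and haemoglobin genes out of the totals gave lymphocyte Glycam1 levels of 27.2 CPM in control and 4.68 CPM in knockout, and leaving out the control lymphocytes with 10 or more Glycam1 UMIs gave 10.4 CPM. The share of lymphocytes with a Glycam1 UMI was 1.21% and 0.268% when thinned to 1000 UMIs, and 7.23% and 2.22% with no thinning. Of the 13 settings, Chst4 was past 2-fold higher in knockout in 13 (log2 1.75 to 3.31), Podxl in 11 and Glycam1 past 2-fold lower in 11. Over the other endothelium Fut7, Chst2, St3gal6 and Podxl stayed past 2-fold on their side in all 17 settings in both libraries. The cause of each change was not tested. Depth limits B3gnt3 in both libraries and Podxl and Chst4 in control most, where 12 to 30 UMIs were counted.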
